A study of Mus musculus with 2 samples.

Results

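Cell cycle and DNA replication genes are described here in livers of 6-month-old male C57Bl/6 mice, as 46 genes chosen by name out of the 23283 gene rows of the deposited table. The list holds 15 genes of G1, when a cell commits to divide, 14 of S phase, when it copies its DNA, and 17 of G2 and M, when it prepares for and carries out mitosis. RNA came from perfused livers. Mice of one group were labelled Akt1F/F;Akt2-/-;Alb-Cre, that is floxed for the kinase gene Akt1, null for Akt2 and carrying Cre recombinase under the albumin promoter, which acts in hepatocytes. Mice of the other group were labelled Akt1F/F;Akt2-/-, the same alleles without Cre, so both groups were labelled null for Akt2. For each genotype mRNA isolated from 4 livers was combined to make 1 library, called here the Alb-Cre library and the control library after their labels. Akt2 nevertheless had 33.5 FPKM in the Alb-Cre library and 37.5 FPKM in the control library, more than Akt1 in both. The deposited value covers the whole gene, so transcript left by a null allele and intact transcript cannot be told apart, and every direction below is between libraries named by their labels.

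Each genotype is 1 library, so no value below has a replicate check, an SD or a test of the genotypes. Values are the authors' FPKM, fragments counted in a gene scaled for transcript length and for the size of the library. The 2 scales of difference are used, the log2 ratio of the Alb-Cre value to the control value after adding 1 FPKM to both, and the plain ratio with nothing added. Adding 1 FPKM keeps small differences in weak genes from looking large, and it also shrinks the ratios of weak genes, so weak genes are read on the plain scale beside other rows of like level.

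Adult hepatocytes rarely divide, but they can re-enter the cycle after injury. D-type cyclins with Cdk4 or Cdk6 phosphorylate the RB proteins, which frees E2F factors to switch on the genes of DNA replication. Late in the cycle a second wave of genes, switched on with the help of Foxm1, builds the spindle and drives mitosis. The E2F wave is known to act through E2F sites, and the mitotic wave through an element called CHR that often stands beside CCAAT boxes.

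Of the 46 genes, 36 have a promoter in the RefSeq table (build GRCm38.p6), 39 promoters in all since Ccnd3, E2f2 and Mcm7 have 2 each, from 250 bases before the start to 50 after it. The motifs searched, on both strands, were TTTGAA for CHR, then CCAAT for the box of that name, and for the E2F core 4 forms of 7 letters. These forms were TTCCCGC as the first, then TTCGCGC as the next, then TTGCCGC as another, with TTGGCGC as the last. Read on the opposite strand, TTGGCGC can run into a CCAAT box, so these matches can overlap. CHR was found in 11 of 14 promoters of G2 and M genes, in 1 of 13 of S phase genes, in 2 of 12 of G1 genes and in 17.9% of all 32851 promoters in the table. CCAAT was found in 13 promoters of G2 and M genes, 9 of S phase genes and 6 of G1 genes, against 37.4% of all promoters. The E2F core was found in 3 of G2 and M genes, 9 of S phase genes and 5 of G1 genes, against 9.57% of all promoters. Most G2 and M promoters of the list thus share CHR and CCAAT letters. The genes were chosen by name and not by these letters. Since the mitotic wave is already known for CHR, these shares are not an independent result. A match is a description of letters, not a site shown to be used.

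**Figure D1:**
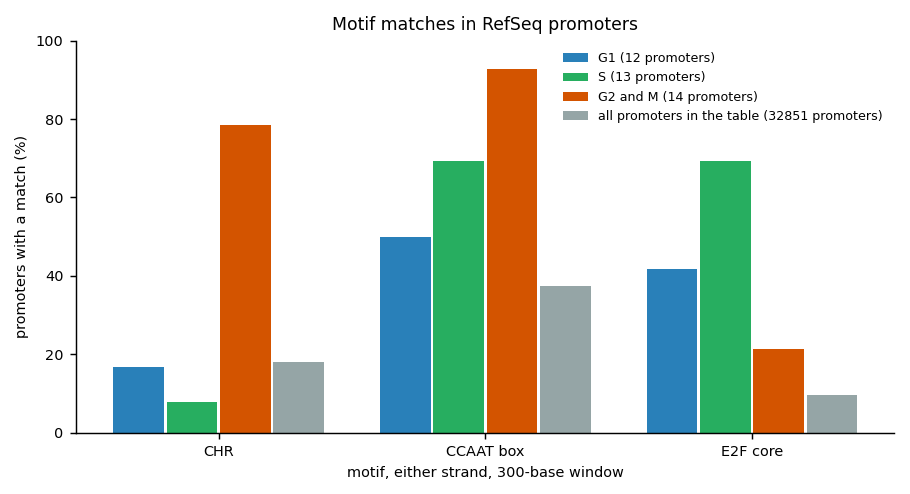
Share of promoters (%) with at least 1 match to each motif, for G1, S and G2 and M genes and for all promoters in the RefSeq table (grey). CHR matches are most frequent in promoters of G2 and M genes (11 of 14), and E2F core matches in those of S phase genes (9 of 13).

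Printed here are 6 promoters, 5 of G2 and M genes with large plain ratios or a central role, and that of Mcm6 as an S phase contrast. Capitals mark every match to CHR, CCAAT or the E2F core. The promoters of Plk1, Cdc20, Mki67 and Cdk1 hold both CHR and CCAAT, that of Ccnb1 holds CCAAT without TTTGAA, and that of Mcm6 holds repeated E2F cores.
Plk1 promoter (chr7:122159185-122159484, plus strand): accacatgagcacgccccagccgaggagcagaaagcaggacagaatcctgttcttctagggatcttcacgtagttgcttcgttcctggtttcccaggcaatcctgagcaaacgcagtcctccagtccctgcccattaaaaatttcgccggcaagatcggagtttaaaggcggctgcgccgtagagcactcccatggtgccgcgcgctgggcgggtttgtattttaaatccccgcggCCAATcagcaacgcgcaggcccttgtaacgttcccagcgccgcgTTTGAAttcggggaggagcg
Cdc20 promoter (chr4:118437294-118437593, minus strand): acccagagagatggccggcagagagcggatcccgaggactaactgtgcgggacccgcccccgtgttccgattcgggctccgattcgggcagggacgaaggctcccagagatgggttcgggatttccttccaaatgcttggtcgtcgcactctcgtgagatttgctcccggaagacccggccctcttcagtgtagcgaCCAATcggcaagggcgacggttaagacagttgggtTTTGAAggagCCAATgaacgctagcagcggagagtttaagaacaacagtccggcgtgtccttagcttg
Mki67 promoter (chr7:135716330-135716629, minus strand): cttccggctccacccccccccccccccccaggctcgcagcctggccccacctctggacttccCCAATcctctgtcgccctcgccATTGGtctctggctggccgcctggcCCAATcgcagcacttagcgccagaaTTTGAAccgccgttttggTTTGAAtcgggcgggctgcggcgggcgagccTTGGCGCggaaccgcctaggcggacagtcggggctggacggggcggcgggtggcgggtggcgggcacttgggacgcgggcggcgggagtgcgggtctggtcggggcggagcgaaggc
Cdk1 promoter (chr10:69352863-69353162, minus strand): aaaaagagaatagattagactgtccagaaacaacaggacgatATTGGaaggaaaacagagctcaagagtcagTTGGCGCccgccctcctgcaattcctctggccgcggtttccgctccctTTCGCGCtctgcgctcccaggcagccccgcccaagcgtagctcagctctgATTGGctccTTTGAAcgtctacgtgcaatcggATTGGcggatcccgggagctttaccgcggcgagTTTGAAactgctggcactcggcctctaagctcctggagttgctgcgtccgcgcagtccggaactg
Ccnb1 promoter (chr13:100786437-100786736, minus strand): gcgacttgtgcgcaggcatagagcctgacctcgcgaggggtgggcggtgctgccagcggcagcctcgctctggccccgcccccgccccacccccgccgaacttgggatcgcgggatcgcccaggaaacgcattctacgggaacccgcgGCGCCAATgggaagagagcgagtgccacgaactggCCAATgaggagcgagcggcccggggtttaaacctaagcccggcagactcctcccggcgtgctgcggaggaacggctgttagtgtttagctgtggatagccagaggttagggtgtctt
Mcm6 promoter (chr1:128359656-128359955, minus strand): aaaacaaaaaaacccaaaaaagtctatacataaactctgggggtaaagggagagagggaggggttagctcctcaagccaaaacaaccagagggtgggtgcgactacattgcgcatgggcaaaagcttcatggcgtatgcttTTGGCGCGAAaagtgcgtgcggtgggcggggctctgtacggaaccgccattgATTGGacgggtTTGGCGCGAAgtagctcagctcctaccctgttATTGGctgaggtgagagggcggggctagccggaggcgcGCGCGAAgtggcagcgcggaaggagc
Genes of the list with no promoter in the table were Ccnd1, Ccnd2, Ccne2, Rb1, Myc, Mcm4, Gmnn, Ccna2, Foxm1 and Aurkb.

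For the libraries as a whole, Akt1, the floxed gene, had 17.1 FPKM in the Alb-Cre library and 23.7 FPKM in the control library. Reads of Akt1 were thus still present in the Alb-Cre library, and a whole-gene value does not show whether the transcript was intact. Neither Akt value checks the labels. From the lowest values, a single read per kb of transcript corresponded to roughly 0.00711 FPKM in the Alb-Cre library and 0.00818 FPKM in the control library, a depth ratio of 1.15. Estimated reads below rest on these steps and on the longest basic coding transcript in GENCODE vM21, so they are approximate, and intervals made from them cover counting error only. The median log2 ratio was -0.06 over 11406 measured genes, those of status OK with 1 FPKM or more in a library. Ratios moved with level across the whole table: rows of status OK with a mean of 1 FPKM or more had a median plain log2 ratio of -0.08, and rows with a mean of 0.05 to 1 FPKM had one of 0.53. Of those 3752 weaker rows, 73.8% were higher in the Alb-Cre library. All 10 hepatocyte markers were expressed, with a summed level of 9880 FPKM in the Alb-Cre library and 11933 FPKM in the control library. Ttr set the order of those sums. The other 9 summed to 6253 FPKM in the Alb-Cre library and 5444 FPKM in the control library. Among these 9, Tat had 1883 FPKM with Alb-Cre and 874 FPKM in the control, a plain ratio of 2.15. Gene by gene, 7 of the 10 markers had lower values with Alb-Cre and 3 had higher ones. Their median plain log2 ratio was -0.20, against -0.08 over rows with a mean of 1 FPKM or more.

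All 46 genes had status OK. With 1 FPKM added, 1 of the 32 measured genes of the list, Ccnd1, reached a 2-fold higher value in Alb-Cre and 0 a 2-fold lower one, against 3.75% higher and 1.83% lower among all measured genes. Over all rows but those of status HIDATA or FAIL, which the authors' software marks as not resolved, the shares were 1.88% and 0.933%, against the same 1 and 0 of all 46 genes. Neither count stands apart from those shares. Another 14 genes were under 1 FPKM in both libraries, 4 of G1, 1 of S and 9 of G2 and M. The median log2 ratio was 0.04 for G1 genes, 0.11 for S phase genes and 0.41 for G2 and M genes, each over all genes of its phase. Without the added 1 FPKM the medians were 0.16, 0.26 and 1.17. The authors' deposited table called 0 of the 46 genes different, where it called 0.673% of rows of status OK. The p-value in the authors' deposited table was under 0.05 for 3 of the 46 genes, Ccnd1, Mki67 and Ccnb1, a share close to the 5.38% of rows of status OK.

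**Figure D2:**
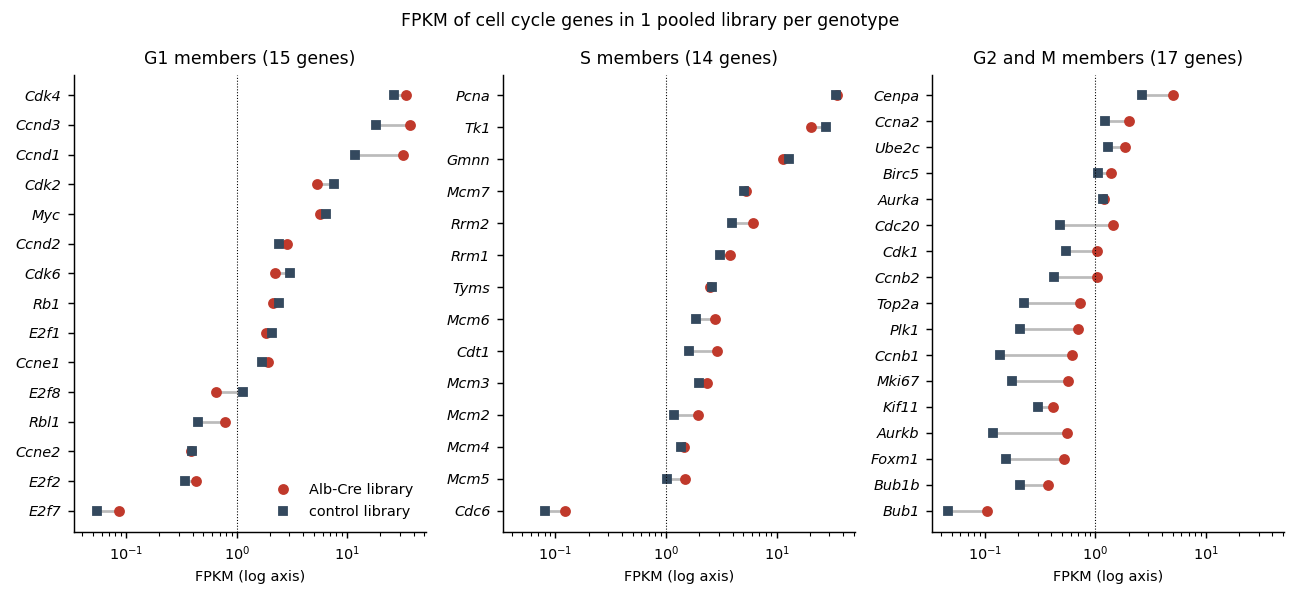
FPKM (log axis) of each gene in the Alb-Cre library (red circles) and the control library (dark squares), by phase and ordered by mean level, with a dotted line at 1 FPKM. The red circle lies right of the square for all 17 G2 and M genes, for 11 of 14 S phase genes and for 8 of 15 G1 genes.

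Among the G1 genes, cyclins D1 and D3 were higher in the Alb-Cre library while their partners, RB and the E2F genes differed by less. Ccnd1, which encodes the D-type cyclin best known from regenerating liver, had 32.2 FPKM in the Alb-Cre library and 11.8 FPKM in the control library, a log2 ratio of 1.38 and a plain ratio of 2.73. It lies on mm10 chromosome 7 from 144929930 to 144939925 in the deposited table. Its ratio ranked 242 from the highest among the 11406 measured genes. In the authors' deposited table its p-value was 0.00175 and its q-value 0.151, the lowest q-value of the 46 genes. In GENCODE, 1100 of its exon bases are shared with a transcript of LTO1, listed under its older name Oraov1 in the deposited table, which had 6.08 FPKM in the Alb-Cre library and 6.67 FPKM in the control library.

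Ccnd3, the D-type cyclin best known from blood cells, had 36.8 FPKM in the Alb-Cre library and 18.3 FPKM in the control library, a log2 ratio of 0.97. That is just under the 2-fold limit with 1 FPKM added and just over it as a plain ratio of 2.01. A processed pseudogene, Ccnd3-ps, matches 881 bases of its transcript at 96.3% identity, and the overlapping gene Bysl shares 361 exon bases, so part of its value is uncertain. Ccnd2, the third D-type cyclin, had 2.88 FPKM in the Alb-Cre library and 2.42 FPKM in the control library. By level the order of the 3 cyclins was Ccnd3, Ccnd1 and Ccnd2 in both libraries, with Ccnd1 closer to Ccnd3 in the Alb-Cre library.

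The cyclin-dependent kinases of G1 differed by less than 2-fold and in both directions. Cdk4 had 34.1 FPKM in the Alb-Cre library and 26.5 FPKM in the control library. Its exons share 641 bases with those of Tspan31, an abundant neighbour at 172 FPKM in the Alb-Cre library and 204 FPKM in the control library, so its level may hold reads of both. Cdk6, the alternative partner of D-type cyclins, had 2.24 FPKM in the Alb-Cre library and 3.04 FPKM in the control library. Cdk2, the partner of E-type and A-type cyclins, had 5.34 FPKM in the Alb-Cre library and 7.52 FPKM in the control library, a log2 ratio of -0.43. The E-type cyclin Ccne1 had 1.90 FPKM in the Alb-Cre library and 1.70 FPKM in the control library. Ccne2 had 0.383 FPKM in the Alb-Cre library and 0.393 FPKM in the control library, and that small difference turned round when the libraries were rescaled. Ccne2 also shares 609 exon bases with Ints8, at 5.11 FPKM with Alb-Cre and 6.78 FPKM in the control, so its level is uncertain.

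RB and E2F genes showed no common direction. Rb1, the retinoblastoma protein that holds E2F in check, had 2.14 FPKM in the Alb-Cre library and 2.42 FPKM in the control library. Rb1 shares 408 exon bases with Lpar6 and 488 with Rcbtb2, both more abundant in both libraries, so its level may hold their reads. Rbl1, a relative of Rb1 also called p107, had 0.789 FPKM in the Alb-Cre library and 0.444 FPKM in the control library, a plain log2 ratio of 0.83. The activator E2f1 had 1.85 FPKM in the Alb-Cre library and 2.08 FPKM in the control library. The signs of Rb1 and E2f1 turned when ratios were centred on abundant genes, to 0.01 and 0.02. E2f2, another activator, had 0.433 FPKM in the Alb-Cre library and 0.341 FPKM in the control library.

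The atypical E2F repressors E2f7 and E2f8, known for their part in hepatocyte polyploidy, differed in direction. E2f8 had 0.654 FPKM in the Alb-Cre library and 1.13 FPKM in the control library, the lowest plain log2 ratio of the 46 genes at -0.79. On estimated reads, about 339 in the Alb-Cre library and 512 in the control library, its 95% counting interval ran from -0.999 to -0.60. E2f7 was near the floor of the list, with 0.0855 FPKM in the Alb-Cre library and 0.0541 FPKM in the control library. Myc, a growth-driving transcription factor, had 5.63 FPKM in the Alb-Cre library and 6.37 FPKM in the control library.

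S phase genes lay close together in the 2 libraries, and 0 of 14 reached 2-fold on either scale. The MCM proteins form the helicase ring that is loaded on origins in G1 and unwinds DNA in S phase. Mcm2 had 1.96 FPKM in the Alb-Cre library and 1.19 FPKM in the control library, a plain log2 ratio of 0.72. Mcm6 had 2.80 FPKM in the Alb-Cre library and 1.89 FPKM in the control library (0.57), and Mcm5 had 1.49 FPKM in the Alb-Cre library and 1.02 FPKM in the control library (0.55). Mcm3 (2.34 FPKM in the Alb-Cre library and 2.00 FPKM in the control library), Mcm4 (1.47 FPKM with Alb-Cre and 1.37 FPKM in the control) and Mcm7 (5.33 FPKM with Alb-Cre and 5.03 FPKM in the control) had plain log2 ratios of 0.23 or less. All 6 were higher in the Alb-Cre library, where 40% of rows with a mean of 1 FPKM or more were higher. The 6 subunits work as 1 complex, and so are not independent of each other. The value of Mcm7 may include reads of its pseudogene Gm5487, which matches 2157 bases at 97.7% identity.

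The loading factors of the helicase split. Cdt1, which brings the MCM ring to origins, had 2.89 FPKM in the Alb-Cre library and 1.61 FPKM in the control library, the highest plain log2 ratio of the S phase genes at 0.84. Gmnn, which encodes geminin, the inhibitor of Cdt1, had 11.5 FPKM in the Alb-Cre library and 12.9 FPKM in the control library. Cdc6, the partner of Cdt1 in loading, was weak, with 0.121 FPKM in the Alb-Cre library and 0.0802 FPKM in the control library, about 79 estimated reads in the Alb-Cre library and 45 in the control library. The pseudogene Gm9430 matches 1528 bases of the Cdc6 transcript at 95.2% identity.

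Among the genes of the fork clamp and of nucleotide supply, Pcna, the sliding clamp of DNA polymerases, was the most abundant, with 35.6 FPKM in the Alb-Cre library and 34.9 FPKM in the control library. A processed pseudogene, Pcna-ps2, matches 781 bases of its transcript at 99.2% identity, so part of its value is uncertain. Rrm2, the regulated subunit of ribonucleotide reductase, had 6.14 FPKM in the Alb-Cre library and 3.92 FPKM in the control library, a plain log2 ratio of 0.65. Its partner Rrm1 had 3.78 FPKM in the Alb-Cre library and 3.10 FPKM in the control library. The pseudogene Gm48455 matches 419 bases of the Rrm2 transcript at 95.5% identity. Tyms, which makes thymidylate, had 2.51 FPKM in the Alb-Cre library and 2.59 FPKM in the control library, a difference that turned sign under both rescalings. Tk1, thymidine kinase, was lower in the Alb-Cre library with 20.5 FPKM, against 28.3 FPKM in the control library. The deposited locus of Tk1 also spans its neighbour Afmid, at 61.9 FPKM in the Alb-Cre library and 80.5 FPKM in the control library, so its level is uncertain.

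The G2 and M genes were the weakest of the list and the ones with the largest plain ratios. All 17 had higher values with Alb-Cre, and 9 of them were at least 2-fold higher as a plain ratio, all 9 with a mean under 1 FPKM. Of the 12 weak G2 and M genes, 9 were at least 2-fold higher (75.0%), against 29.5% of all 3752 rows of status OK with a mean of 0.05 to 1 FPKM. None of the 12 was 2-fold lower, where 4.21% of those rows were. The median plain log2 ratio of these 12 was 1.63, against 0.53 over those rows. The plain scale and this band were chosen after the values were seen, and the list with earlier results of these data known. These contrasts are therefore descriptions and not an independent test. The 5 G2 and M genes with a mean of 1 FPKM or more had a median of 0.52, against -0.08 over rows of that level, and 0 of them reached 2-fold, where 6.06% of those rows did and 2.39% were 2-fold lower. By comparison 0 of the 5 weak G1 genes were at least 2-fold higher. The summed level of the 17 genes was 19.6 FPKM in the Alb-Cre library and 10.4 FPKM in the control library.

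**Figure D3:**
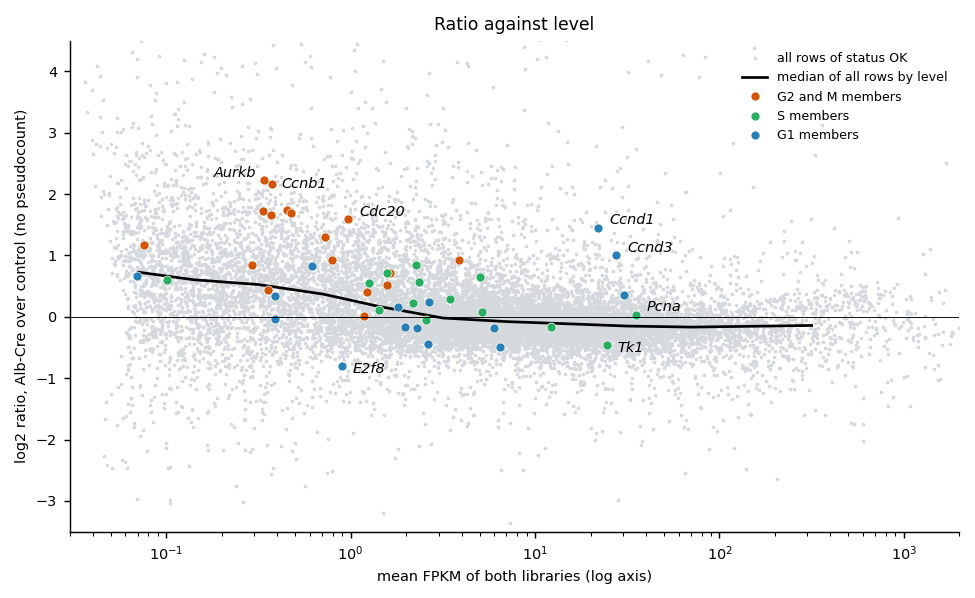
Plain log2 ratio of Alb-Cre over control against the mean FPKM of both libraries (log axis), for all rows of status OK (grey), with the median of all rows by level (black line) and the 46 genes coloured by phase. The black line lies above 0 at low levels, and most weak G2 and M genes (orange) lie above that line, with Aurkb and Ccnb1 highest.

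The mitotic cyclins, Cdk1 and Foxm1 form the engine of mitotic entry. Ccnb1, the cyclin B that activates Cdk1, had 0.614 FPKM in the Alb-Cre library and 0.137 FPKM in the control library, a plain ratio of 4.48. Its processed pseudogenes Ccnb1-ps, Gm12856 and Gm8416 each match 51.7% or more of its transcript at 97.3% identity or more, so this value is uncertain. Ccnb2, the second cyclin B, had 1.03 FPKM in the Alb-Cre library and 0.420 FPKM in the control library, a plain ratio of 2.45. Foxm1, the transcription factor of the mitotic wave, had 0.515 FPKM in the Alb-Cre library and 0.156 FPKM in the control library, a plain ratio of 3.30. The deposited locus of Foxm1 runs 8998 bases outside the annotated gene, so its level is uncertain. Cdk1 itself had 1.04 FPKM in the Alb-Cre library and 0.546 FPKM in the control library, and Ccna2, cyclin A2 of S phase and G2, had 2.02 FPKM in the Alb-Cre library and 1.23 FPKM in the control library. Ccna2 shares 510 exon bases with its neighbour Exosc9, at 8.77 FPKM in the Alb-Cre library and 8.24 FPKM in the control library.

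The mitotic kinases had plain ratios from near 1 to above 4. Aurkb, the kinase that corrects chromosome attachment, had 0.559 FPKM in the Alb-Cre library and 0.120 FPKM in the control library, the highest plain ratio of the 46 genes at 4.67. Its estimated reads were about 153 in the Alb-Cre library and 29 in the control library, and its counting interval on the log2 scale ran from 1.62 to 2.82. Aurka, the related kinase of the spindle poles, had 1.19 FPKM in the Alb-Cre library and 1.17 FPKM in the control library, with a counting interval from -0.22 to 0.26. Whether the ratios of Aurkb and Aurka differ beyond the spread between mice was not tested, and rows of their 2 levels have unlike medians across the table. Plk1, a kinase of mitotic entry and exit, had 0.699 FPKM in the Alb-Cre library and 0.209 FPKM in the control library, a plain ratio of 3.34. Bub1, a checkpoint kinase, was the weakest gene of its phase with 0.105 FPKM in the Alb-Cre library and 0.0468 FPKM in the control library, and its partner Bub1b had 0.375 FPKM in the Alb-Cre library and 0.209 FPKM in the control library. Birc5, or survivin, which works with Aurkb in 1 complex, had 1.39 FPKM in the Alb-Cre library and 1.05 FPKM in the control library.

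Genes of anaphase, spindle and chromosomes were likewise higher to unequal degrees. Cdc20, the activator of the anaphase promoting complex, had 1.46 FPKM in the Alb-Cre library and 0.484 FPKM in the control library, a plain ratio of 3.01. Ube2c, the ubiquitin-conjugating enzyme of that complex, had 1.85 FPKM in the Alb-Cre library and 1.29 FPKM in the control library, a plain ratio of 1.43. The deposited locus of Cdc20 runs 4809 bases outside the annotated gene, so the level of Cdc20 is uncertain. Its exons share 53 bases with Elovl1, at 28.0 FPKM in the Alb-Cre library and 29.5 FPKM in the control library. Mki67, the proliferation marker Ki-67, had 0.562 FPKM in the Alb-Cre library and 0.177 FPKM in the control library, a plain ratio of 3.18. With about 796 estimated reads in the Alb-Cre library and 218 in the control library, Mki67 is a weak gene per length but not a sparsely counted one. Top2a, the topoisomerase that untangles chromosomes, had 0.729 FPKM in the Alb-Cre library and 0.225 FPKM in the control library, a plain ratio of 3.25. Cenpa, the centromere histone, had the highest level of the phase, 5.08 FPKM in the Alb-Cre library and 2.66 FPKM in the control library, a log2 ratio of 0.73 with 1 FPKM added. Kif11, a spindle motor, had 0.412 FPKM in the Alb-Cre library and 0.304 FPKM in the control library.

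**Figure D4:**
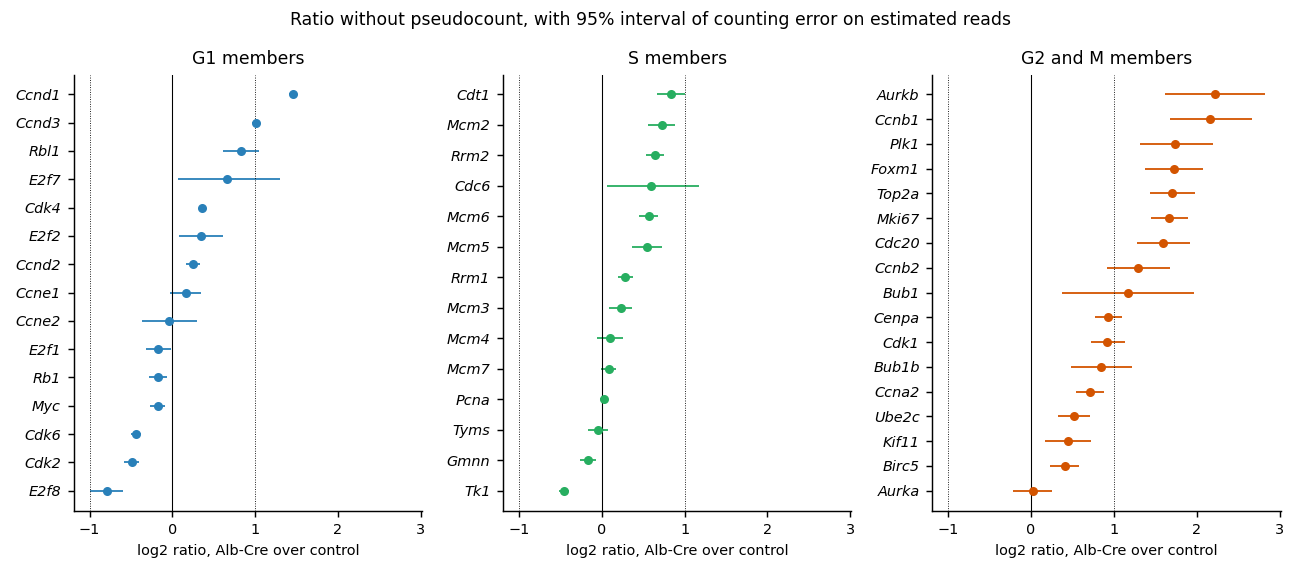
Plain log2 ratio of Alb-Cre over control for each gene by phase, with 95% intervals of counting error from estimated reads and dotted lines at 2-fold. The interval lies above 0 for 16 of 17 G2 and M genes, 8 of 14 S phase genes and 7 of 15 G1 genes, where 53.2% of weak rows and 32.5% of stronger rows in the whole table do. It does not include the spread between mice.

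Counting intervals put 12 of 12 weak G2 and M genes above 0, where 53.2% of 3314 weak rows with a transcript length lay above and 11.6% below. Of the 5 stronger G2 and M genes 4 lay above, with Aurka the exception, where 32.5% of 10060 rows with a mean of 1 FPKM or more lay above and 50.6% below. For S phase the intervals put 8 of 14 genes above 0 and 2 below, and for G1 7 of 15 above and 6 below, shares read against the same background. Of the other cell cycle genes 65 of 145 lay above and 43 below, with 41 of the 52 weak ones above. Most rows of either level had an interval clear of 0, so that alone does not set a gene apart. In the authors' deposited table the lowest p-values among G2 and M genes were 0.0355 for Mki67, 0.0484 for Ccnb1, and 0.0565 for Aurkb and for Top2a, with q-values of 0.817 or more.

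Other genes of the cell cycle, 145 with a row out of 147 listed, were read in the same way. Of 92 measured, 1 was at least 2-fold higher with 1 FPKM added and 2 were at least 2-fold lower, against 3.75% and 1.83% of all measured genes. Pold4, the small subunit of DNA polymerase delta, had 41.7 FPKM in the Alb-Cre library and 18.2 FPKM in the control library (log2 ratio 1.15), and 286 of its exon bases overlap another annotated gene. Mcm10, a factor of origin firing, had 14.1 FPKM in the Alb-Cre library and 41.2 FPKM in the control library (-1.49). Ccnf, cyclin F, an adaptor of a ubiquitin ligase, had 2.74 FPKM in the Alb-Cre library and 6.54 FPKM in the control library (-1.01). This difference of Ccnf fell short of 2-fold with either rescaling. Mcm10 and Ccnf thus lay opposite to the mitotic genes of the list, as did Wee1, the kinase that holds Cdk1 inactive, with 6.07 FPKM in the Alb-Cre library and 11.9 FPKM in the control library (-0.87), and the kinetochore gene Spc24, with 6.39 FPKM in the Alb-Cre library and 12.5 FPKM in the control library (-0.87).

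Of the 52 weak genes among these other cell cycle genes 23 were at least 2-fold higher as a plain ratio (44.2%), against 29.5% of weak rows in general. The spindle and cytokinesis genes had the highest count. Of 21 weak genes in that group 13 passed 2-fold (61.9%), with a median plain log2 ratio of 1.18, against 9 of 12 and 1.63 for the weak G2 and M genes of the list. Chosen after their values were seen, the cytokinesis genes Cep55 (0.178 FPKM in the Alb-Cre library and 0.0401 FPKM in the control library) and Cit (0.176 FPKM with Alb-Cre and 0.0513 FPKM in the control) and the spindle gene Nusap1 (0.484 FPKM with Alb-Cre and 0.159 FPKM in the control) are examples. Weak kinetochore genes, with 4 of 12 at least 2-fold higher, lay near the general share. The 1 abundant gene of the spindle group, Pttg1, which encodes securin, had 25.6 FPKM in the Alb-Cre library and 32.2 FPKM in the control library. Groups made mostly of genes with a mean of 1 FPKM or more had median plain log2 ratios from -0.12 to 0.20. The medians were 0.20 for cohesin and condensin, 0.16 for polymerases and fork and 0.03 for E2F partners and the DREAM complex. They were -0.03 for the anaphase promoting complex and -0.12 for both CDK activation and origin firing.

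**Figure D5:**
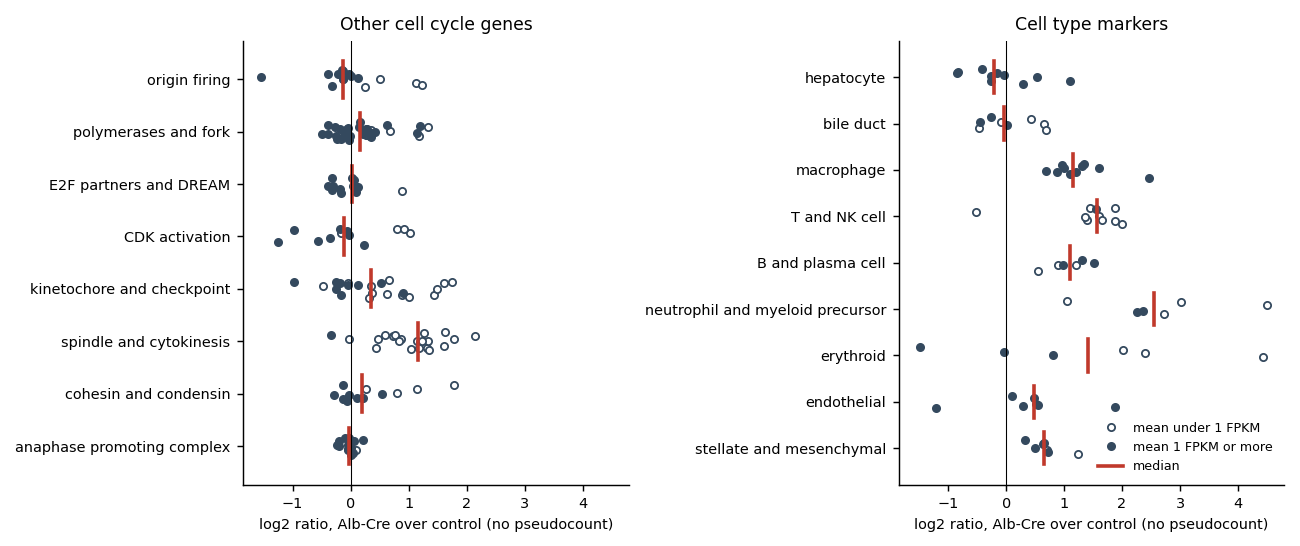
Plain log2 ratio of Alb-Cre over control for other cell cycle genes (left) and cell type markers (right), with open circles for a mean under 1 FPKM, filled circles for 1 FPKM or more and a red bar at each group's median. Spindle and cytokinesis genes have a median of 1.16, and macrophage, T and NK cell, B cell, neutrophil and erythroid markers have medians of 1.09 to 2.54.

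Markers of macrophages, lymphocytes and neutrophils were higher alongside the G2 and M genes. The macrophage list includes Clec4f, Timd4, Vsig4, Cd5l and Marco, known from the resident Kupffer cells of the liver. All 10 macrophage markers had higher values with Alb-Cre, and their summed level was 357 FPKM in the Alb-Cre library and 149.6 FPKM in the control library. Of 10 T and NK cell markers 9 were higher, with sums of 9.54 FPKM in the Alb-Cre library and 3.61 FPKM in the control library. All 6 B and plasma cell markers with a row were higher, with sums of 17.5 FPKM in the Alb-Cre library and 6.67 FPKM in the control library. All 6 markers of neutrophils and myeloid precursors with a row were higher, with sums of 19.4 FPKM in the Alb-Cre library and 3.88 FPKM in the control library. Among all rows of status OK and a mean of 0.05 to 1 FPKM, 73.8% had higher values with Alb-Cre. At 1 FPKM or more 40% did. In the weaker band were 9 T and NK cell, 3 B and plasma cell and 4 neutrophil markers. The medians of these weak markers were 1.60, 0.89 and 2.88 as plain log2 ratios, against 0.53 over the band. The 4 weak neutrophil markers Ngp, Camp, Elane and Mpo rest on about 10, 6, 7 and 2 estimated reads in the control library. For Elane the counting interval on the log2 scale ran from -0.27 to 2.59, so the neutrophil median is poorly measured. All 10 macrophage markers had a mean of 1 FPKM or more. Markers of bile duct, endothelial and stellate cells differed less by their medians, which were -0.04, 0.48 and 0.65 as plain log2 ratios. Bile duct markers summed to 39.3 FPKM in the Alb-Cre library and 40.1 FPKM in the control library, with 4 of 8 higher. Most of both sums was Spp1, with 30.5 FPKM with Alb-Cre and 30.3 FPKM in the control. Endothelial markers summed to 96.1 FPKM in the Alb-Cre library and 70.3 FPKM in the control library, with 6 of 7 higher, and stellate and mesenchymal markers to 32.6 FPKM in the Alb-Cre library and 22.5 FPKM in the control library, with 7 of 7 higher. Most of both endothelial sums was Clec4g, with 65.6 FPKM with Alb-Cre and 47.0 FPKM in the control. Lyve1 had the highest endothelial plain ratio, 3.69, and Stab2 the lowest, 0.43. The 6 erythroid markers with a row summed to 47.9 FPKM in the Alb-Cre library and 121 FPKM in the control library, with 4 higher, and Alas2 alone had 41.8 FPKM in the Alb-Cre library and 117 FPKM in the control library. Without Alas2 the other 5 summed to 6.06 FPKM in the Alb-Cre library and 4.603 FPKM in the control library. The erythroid median plain log2 ratio was 1.41, with Hba-a1, Hbb-b1, Hbb-bt and Ahsp having no row. The highest erythroid plain ratios were 21.5 for Hba-a2 and 5.24 for Slc4a1, both under 1 FPKM. They rest on about 2 and 20 estimated reads in the control library. Of the stronger erythroid genes, Alas2 had a plain ratio of 0.36, Klf1 0.98 and Epor 1.75. No marker with a row was listed at 0 in either library. Whether the G2 and M transcripts came from hepatocytes or from such cells was not tested, and in a bulk sample more cells of a type and more RNA per cell cannot be told apart.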

How the data were processed

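RNA-seq of 2 pooled liver libraries was analysed from a table in the Cuffdiff layout. Per the submitters' processing notes, FastQC, TopHat2 2.0.8, Cuffdiff 2.1.1 and build mm10 were used, with no role or order given. Settings, annotation, strandedness and read totals are not given in the sources used here. Deposited are the authors' FPKM values of each gene in each library, per the file headers, and the authors' p-value and q-value, which compare 2 libraries and not the genotypes.

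Genes were matched by symbol, with older symbols where listed. Rows of status HIDATA or FAIL were set aside, which touched none of the 46 genes. Log2 ratios are Alb-Cre over control with 1 FPKM added, and plain ratios have nothing added. A gene was measured at status OK and 1 FPKM or more in at least 1 library, and called at 2-fold. The plain scale and the band of 0.05 to 1 FPKM were chosen after the values were seen. The members and lists were chosen with earlier results of these data known. The rule for naming genes gave weaker genes of the list only by range, but values of every gene are printed. Of the other lists, genes named are among the 3 highest and 3 lowest ratios of a group, except where stated.

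The worth of 1 read was the centre of the lowest peak of FPKM times length over genes with 1 annotated transcript of 0.8 to 8 kb (104 genes in that peak in the Alb-Cre library, 93 in the control library). Counting intervals are exact binomial intervals (95%, Clopper-Pearson) on reads rounded to whole numbers. The calls and the read estimate were tested on simulated data. Exon overlaps (20 bases or more, either strand) used GENCODE vM21, and pseudogene copies were found with BLAST 2.17.0 at 95% identity over 200 bases. Computation used Python 3.11.15, pandas 2.3.3, numpy 2.4.6, scipy 1.17.1 and matplotlib 3.10.9.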

Additional observations from a re-analysis of the deposited data

How the results depend on the processing

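No paired analysis was possible because each genotype has 1 library, and no library could be left out. The count of listed genes at least 2-fold higher was 1 as reported, 4 with a pseudocount of 0.1 FPKM or none, 11 with neither pseudocount nor minimum, 2 with both libraries at the same sum of FPKM or with centred ratios, 4 at a limit of 1.5-fold and 0 at 4-fold. It was 0 for lower genes under each alternative run. The G2 and M count by plain ratio was 9 as reported, 2 at a limit of 4-fold and 8 to 13 under the other alternatives. For other cell cycle genes the higher count of 1 was 2 with 0.1 FPKM or no pseudocount, 27 with neither pseudocount nor minimum, 2 at 1.5-fold and 0 at 4-fold. Their lower count of 2 was 1 with a pseudocount of 5 FPKM, with the same sum and with centred ratios, 4 at 1.5-fold and 0 at 4-fold. Median log2 ratios moved with the pseudocount: over all 46 genes 0.37 with 0.1 FPKM, 0.0828 with 5 FPKM and 0.53 with none. The phase medians for G1, S and G2 and M were 0.15, 0.25 and 0.91 with 0.1 FPKM, and 0.16, 0.26 and 1.17 with none. With 5 FPKM that of G2 and M was 0.12. With a minimum of 5 FPKM the medians were 0.0707 over all, 0.35 for G1 and 0.73 for G2 and M, since few genes were left. Scaling to the same sum shifts plain log2 ratios by 0.12, and centring subtracts the median of abundant genes, -0.13, from every log2 ratio. Centred medians were 0.34 over all, 0.18, 0.25 and 0.54. The G1 median of 0.04 became -0.00492 with a mean of 1 FPKM or more. These ratios of G2 and M genes thus rest on weak values, and their size depends on the pseudocount by construction. Both rescalings moved every ratio upward, and all 17 G2 and M ratios were above 0 as deposited. Neither rescaling could therefore have turned their direction, which was not tested by them. Depth limits Bub1, Cdc6 and E2f7, with under 100 estimated reads in each library. Other G2 and M genes had under 100 in the control library, among them Aurkb with about 29 and Ccnb1 with about 42.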
